A study of Mus musculus with 6 samples.

Results

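GHRH neurons are the hypothalamic cells that make growth hormone-releasing hormone (*Ghrh*), the peptide that drives growth hormone secretion from the pituitary. The arcuate nucleus holds those that project to the median eminence, where the peptide enters the portal blood. Growth hormone and the IGF1 made under its control feed back on them, and somatostatin opposes their action at the pituitary. They are known to use GABA, galanin, dopamine and, for some of them, acetylcholine beside their releasing hormone.

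Here the cells were chosen by a rule on raw counts of unique molecular identifiers (UMIs, each standing for 1 captured transcript). A nucleus had to hold at least 1000 UMIs, at least 2 UMIs over the neuronal genes *Snap25*, *Syt1* and *Rbfox3*, at least 2 *Ghrh* UMIs that were also at least 3 per 10000 UMIs of that nucleus, and fewer than 2 UMIs of *Agrp*. This left 276 nuclei, of 39953 barcodes in all and of 34707 nuclei that passed the UMI and neuronal lines. The level of *Ghrh* and of the other 4 genes of the rule is therefore a description, and nothing is read from a test of them between populations. Galanin (*Gal*) came with the rule as a second marker, so its level serves as a check of the name.

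The nuclei came from the hypothalami of wild-type male C57Bl/6 mice aged 6 to 8 weeks, which carried no transgene or reporter. In all, 12 mice had chow ad libitum and 6 were fasted for 16 h overnight. Hypothalami were pooled by 6, giving 2 ad libitum-fed pools made on separate days and 1 fasted pool, and each pool was sorted into a pair of tubes for single-nucleus RNA sequencing (nucSeq). The 6 libraries are called ad libitum-fed libraries 1 to 4 and fasted libraries 1 and 2, and the labels do not say which ad libitum-fed libraries share a pool.

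The libraries did not contribute evenly. GHRH neurons numbered 39, 22, 117 and 77 in ad libitum-fed libraries 1 to 4 and 9 and 12 in the fasted libraries, so that libraries 3 and 4 held 194 of the 276 (70.3%). The same pair of libraries stood apart in ribosomal content. In libraries 3 and 4, 2.64% and 2.74% of GHRH neuron UMIs were from ribosomal protein genes, against 0.649% and 0.602% in libraries 1 and 2 and 0.368% and 0.336% in the fasted libraries, and other neurons showed the same split (1.90% and 1.92% against 0.288% to 0.435%). The median GHRH neuron had 4005 and 4430.5 UMIs in libraries 1 and 2, 7681 and 7827 in libraries 3 and 4, and 7048 and 6788 in the fasted libraries. Of the 276 barcodes, 0 recurred in another library, although 152 barcode sequences in all did. Comparisons between GHRH neurons and other cells were therefore made within pools, and their counts are also given without libraries 3 and 4.

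*Ghrh* (chromosome 2, 157329497 to 157347506 on the minus strand of GRCm38) reached 928, 981, 3388 and 2892 CPM (UMIs of the gene per 1000000 UMIs, taken over all GHRH neurons of a library together) in ad libitum-fed libraries 1 to 4, and 674 and 684 CPM in the fasted libraries. Per nucleus the median was 3, 3.5, 15 and 11 *Ghrh* UMIs with ad libitum feeding and 3 and 4.5 after the fast, and the highest nucleus had 11, 14, 217, 187, 14 and 10. Nuclei with over 14 *Ghrh* UMIs were thus found in libraries 3 and 4 and in 0 of the other 4 libraries (plot of *Ghrh* UMIs in each nucleus). Oligodendrocyte-like nuclei, which should not make the peptide and so measure free RNA, had a *Ghrh* UMI in 7 of 874 cases (0.801%, 95% exact binomial interval 0.323 to 1.64%) at a median of 2395 UMIs. Most of these nuclei were from the fasted libraries (330 and 341), where 1 and 2 had a *Ghrh* UMI. Libraries 3 and 4, which hold most GHRH neurons, had 14 of them each, with a *Ghrh* UMI in 2 and 0, so free RNA there was hardly measured, and the same limit holds for the other shares given for oligodendrocyte-like nuclei.

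**Figure D1:**
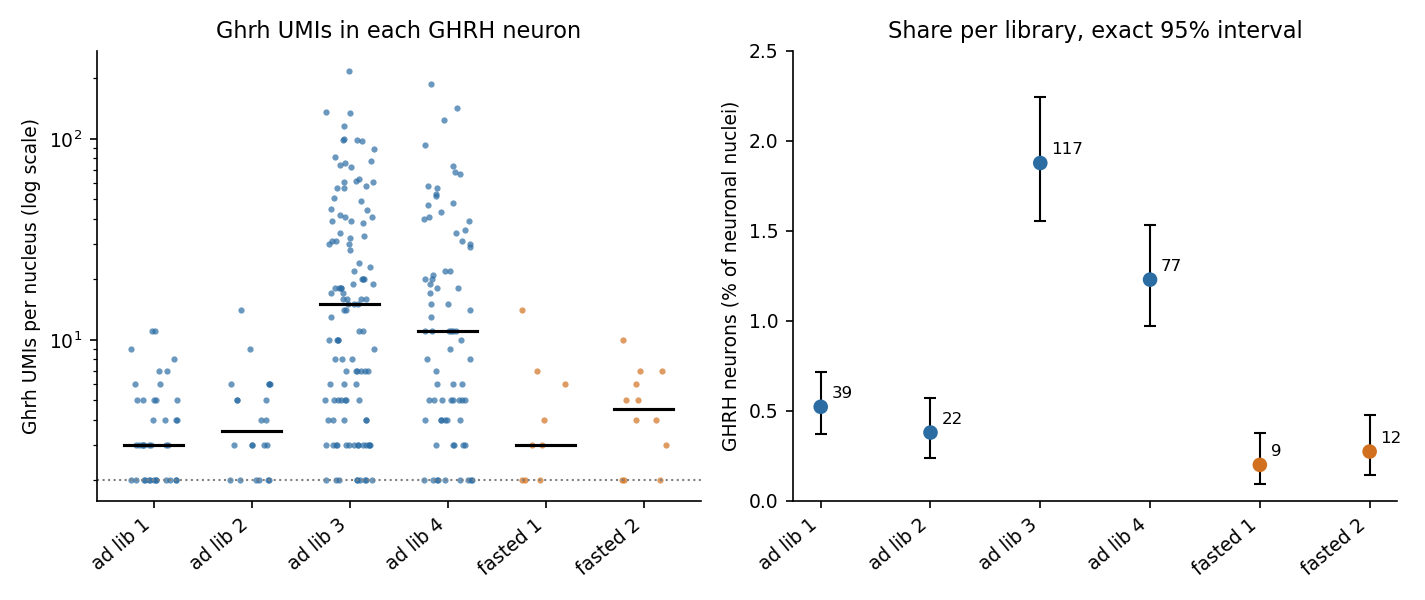
*Ghrh* UMIs of each of the 276 GHRH neurons by library (left; log scale, bars are medians, the dotted line is the rule's minimum of 2) and the share of neuronal nuclei that were GHRH neurons (right; percent with 95% exact binomial intervals, the number of GHRH neurons beside each point). Nuclei above 14 *Ghrh* UMIs lie in ad libitum-fed libraries 3 and 4, and the share runs from 0.199% in fasted library 1 to 1.88% in ad libitum-fed library 3.

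Just inside the rule, 43 nuclei had exactly 2 *Ghrh* UMIs and 38 had fewer than 4 per 10000 UMIs, and just outside it 2024 neuronal nuclei had 1 *Ghrh* UMI. In libraries 3 and 4, *Gal*, which the rule did not read, was detected in 37.2% of nuclei with 0 *Ghrh* UMIs, 43.5% with 1, 44.4% with 2, 63.2% with 3, 65.2% with 4 to 9 and 91.9% with 10 or more. The estrogen receptor gene *Esr1* went from 18.3% at 0 UMIs over 5.56% at 2 (18 nuclei) to 73.9% at 10 or more (111 nuclei), and the growth hormone receptor gene *Ghr* from 49.5% over 33.3% to 91.9%. The nuclei with 2 *Ghrh* UMIs there were shallower, at a median of 4508 UMIs against 8724 at 0 and 7924 at 10 or more, so these shares are not matched for depth. In libraries 1 and 2, where depth was closer (a median of 4348 UMIs at 2 and 4684 at 0), *Ghr* was found in 63.2% and *Esr1* in 47.4% of 19 nuclei with 2 *Ghrh* UMIs, against 39.9% and 13.9% of nuclei without *Ghrh*. All 6 fasted nuclei with 2 *Ghrh* UMIs had a *Ghr* UMI, against 48.6% of fasted nuclei without *Ghrh*.

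To ask what sets GHRH neurons apart, their summed counts were compared, within pools, with those of 30399 other neurons, which passed the same lines but held 0 *Ghrh* UMIs. Of 8243 genes with enough counts, 394 were higher in GHRH neurons (4.78%) and 437 lower (5.3%) at an adjusted p under 0.05 by edgeR's quasi-likelihood test with Benjamini-Hochberg adjustment. *Ghrh*, which was in the fit across all genes, is 1 of the 394, and its call follows from the rule, which leaves 393. Of the genes called, 273 were higher and 366 lower in each of the 6 libraries, set against 8.26% and 7.84% of all tested genes that had such a pattern. Genes had to reach a mean of 20 CPM over the compared samples, so a gene below that level in other neurons, such as *Th*, *Chat*, *Colec12*, *Mbnl3* or *Foxo1*, was tested only because it was high in GHRH neurons, and its call is no independent support. The counts of list members called can include such genes. The fitted changes are log2 fold changes (log2FC). Their standard errors in the edgeR fits were taken as the absolute log2FC divided by the root of the test's F statistic. Both come from the way of pairing the ad libitum-fed libraries that gave the gene its largest p, so genes can differ in the pairing used. DESeq2 called 218 genes higher and 243 lower, and without libraries 3 and 4 the counts were 241 and 287.

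Apart from *Ghrh*, *Gal* had the highest log2FC of the called genes at a mean of at least 50 CPM, and other transmitter genes were called as well. *Gal* (chromosome 19, 3409915 to 3414544, minus strand) was at 461, 587, 2683 and 2409.9 CPM in ad libitum-fed libraries 1 to 4 and 47.0 and 216 CPM in the fasted libraries of GHRH neurons, and at 27.4, 30.1, 197, 204, 12.3 and 9.52 CPM in other neurons in the same order. The 6 libraries differed widely in both populations, with the highest values in libraries 3 and 4, but within each library GHRH neurons lay above the others (log2FC 4.00 ± 0.18 (SE), adjusted p = 5.09e-10). A *Gal* UMI was found in 202 of 276 GHRH neurons (73.2%, 95% exact binomial interval 67.6 to 78.3%), in 18.1% of other neurons and in 2.75% of oligodendrocyte-like nuclei. With each nucleus thinned to 2000 UMIs the shares were 58.4%, 7.48% and 1.12%.

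*Th* (chromosome 7, 142892752 to 142931128, minus strand), which encodes tyrosine hydroxylase, the rate-limiting enzyme of dopamine synthesis, was at 40.9, 60.7, 74.8 and 70.4 CPM in ad libitum-fed libraries 1 to 4 and 78.3 and 48.0 CPM in the fasted libraries, against 5.40 to 8.30 CPM in other neurons. GHRH neurons were well above other neurons in every library, and their own values varied less than those of *Gal* (log2FC 3.24 ± 0.24 (SE), adjusted p = 1.68e-07). *Ddc*, encoding the next enzyme of that pathway, was at 70.1, 132, 60.3, 54.8, 15.7 and 48.0 CPM against 36.2 to 41.1 CPM (log2FC 0.64 ± 0.19 (SE), adjusted p = 0.0275), with fasted library 1 below the other neurons, and this call was lost in 10 alternatives, among them DESeq2 (adjusted p = 0.408). The vesicular monoamine transporter gene *Slc18a2* was not called (log2FC -0.38 ± 0.28 (SE), adjusted p = 0.594), and the dopamine transporter gene *Slc6a3* had 1 UMI in all GHRH neurons. The opioid peptide gene *Penk* was at 35.0, 60.7, 183 and 156 CPM in ad libitum-fed libraries 1 to 4 and 0 and 60.0 CPM in the fasted libraries and was higher than in other neurons (log2FC 1.00 ± 0.17 (SE), adjusted p = 5.16e-05), although fasted library 1 held 0.

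GHRH neurons also held transcripts of acetylcholine synthesis and release that were rare in other neurons. *Chat* (chromosome 14, 32408203 to 32465989, minus strand), the gene of the enzyme that makes acetylcholine, was at 17.5, 80.9, 36.4 and 36.0 CPM in ad libitum-fed libraries 1 to 4 and 15.7 and 84.0 CPM in the fasted libraries. Other neurons had 0.383 to 0.98 CPM, so the populations did not overlap (log2FC 5.81 ± 0.88 (SE), adjusted p = 0.000192), and *Chat* passed the filter only through its level in GHRH neurons. In libraries 3 and 4 with the fasted pool alone the log2FC was 5.94, at an adjusted p of 0.229 (edgeR). *Slc18a3*, the gene of the vesicular acetylcholine transporter, was at 5.84, 10.1, 28.1, 32.9, 15.7 and 0 CPM against 0.0686 to 0.315 CPM, and the related carrier gene *Slc10a4* at 11.7, 30.3, 15.6, 12.5, 62.7 and 24.0 CPM against 0.406 to 0.99 CPM. Neither reached the minimum level for the test. *Slc18a3* lies wholly inside the *Chat* interval on the same strand (32462438 to 32464850), so their counts may not be independent. *Slc5a7*, for the high-affinity choline transporter, had 1 UMI in all GHRH neurons. *Ache*, the most abundant of the 5 acetylcholine genes listed, averaged 45.7 CPM in GHRH neurons and 69.3 CPM in other neurons and was not called.

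At least 1 of *Chat*, *Slc18a3* and *Slc10a4* was found in 91 GHRH neurons (33.0%). Together with *Slc5a7* the count was 92 (33.3%, 95% exact binomial interval 27.8 to 39.2%), against 1.79% of other neurons and 0.686% of oligodendrocyte-like nuclei, and by library it ran from 12.8% in ad libitum-fed library 1 to 6 of 12 nuclei in fasted library 2. Of the 91, 85 also had *Gal* and 42 had *Th*, and the overlap was not tested. *Gal* and *Th* were found together in 73 nuclei, *Th* without *Gal* in 11, all of the 3 groups in 40 and none of them in 59 (21.4%). Detection follows depth, so nuclei without a UMI may still express the gene.

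Of the 9 genes listed as a signature of arcuate GHRH neurons, 4 had enough counts to be tested. The 9 genes summed to a mean of 17.1 CPM in other neurons, so these 4 passed the filter through GHRH neurons, and no count of calls is read from them. *Mbnl3*, a regulator of RNA splicing, was at 210.2, 182, 62.4, 50.1, 125 and 36.0 CPM in the 6 libraries in order, against 2.80 to 9.80 CPM in other neurons (log2FC 3.83 ± 0.27). *Colec12*, a scavenger receptor gene, was at 146, 172, 36.4, 46.9, 157 and 108 CPM against 3.74 to 5.84 CPM (log2FC 3.90 ± 0.33). Among the ad libitum-fed libraries both were higher in 1 and 2 than in 3 and 4, the reverse of *Gal*. *Neb* was also higher (log2FC 3.54 ± 0.61) but was at 0 in both fasted libraries. *Gsx1*, a transcription factor gene needed to form these neurons, was seen in 5.80% of GHRH neurons against 0.533% of other neurons, and the calcium-binding protein gene *Scgn* in 8.70% against 0.842%. The list was set with earlier results of these data known and is not independent evidence for the name.

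**Figure D2:**
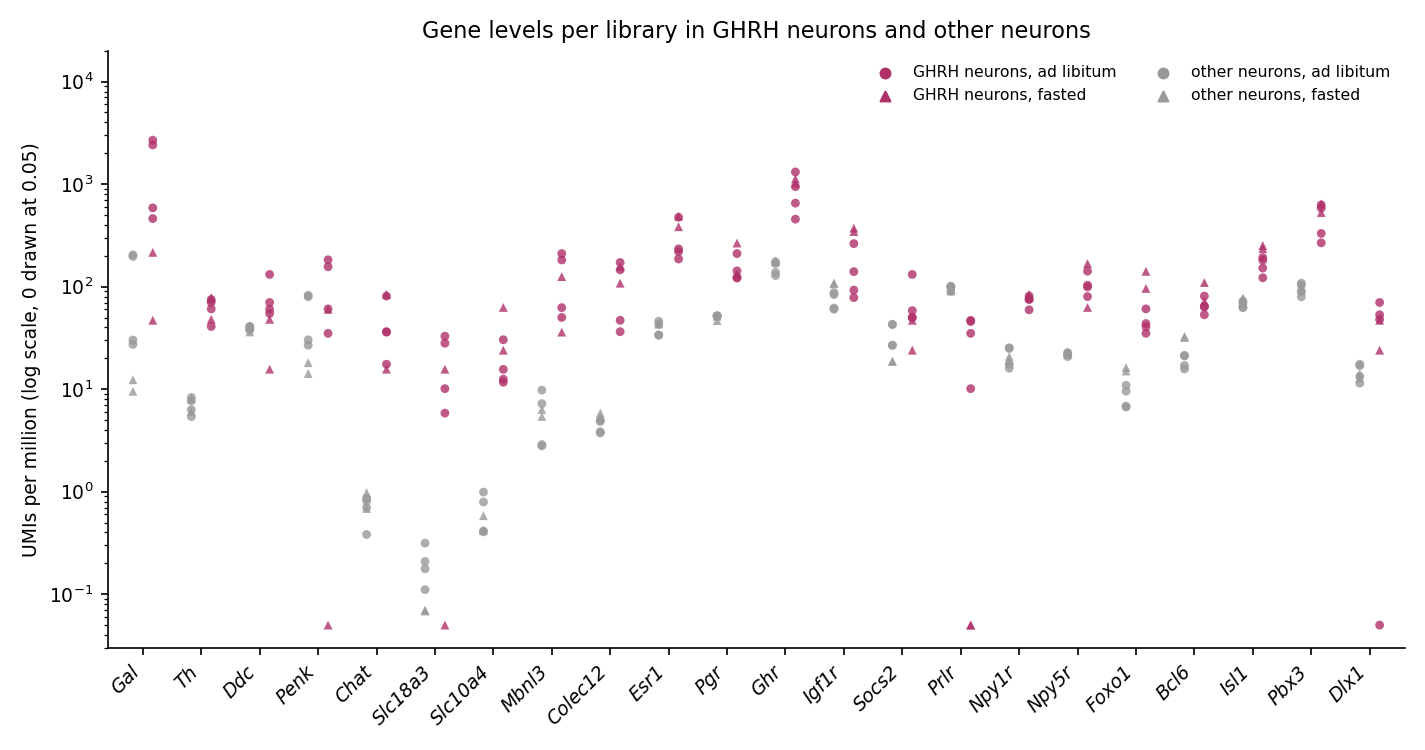
Level of 22 genes (CPM of the summed nuclei, log scale) in GHRH neurons and in other neurons, 1 point per library, with circles for ad libitum-fed and triangles for fasted libraries. A level of 0 is drawn at 0.05. *Chat* runs from 15.7 to 84.0 CPM in GHRH neurons and stays under 1 CPM in other neurons, and *Prlr* shows the opposite order.

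Receptors of the growth hormone axis were sorted next. *Ghr* (chromosome 15, 3317760 to 3583492, minus strand), the receptor through which growth hormone acts, was at 946, 1315, 653 and 455 CPM in ad libitum-fed libraries 1 to 4 and 1128 and 1020.2 CPM in the fasted libraries. Other neurons had 128 to 178 CPM, below every value of GHRH neurons (log2FC 2.22 ± 0.14 (SE), adjusted p = 2.76e-08). A *Ghr* UMI was found in 220 GHRH neurons (79.7%), against 45.4% of other neurons and 5.72% of oligodendrocyte-like nuclei, and in 57.3% against 21.9% of neurons after thinning. *Igf1r*, the receptor of IGF1, was at 140.1, 263, 92.5 and 78.2 CPM in ad libitum-fed libraries 1 to 4 and 345 and 372 CPM in the fasted libraries, against 60.2 to 109 CPM (log2FC 0.74 ± 0.19 (SE), adjusted p = 0.0197). It was highest in the fasted libraries and lowest in libraries 3 and 4, and its call was lost without libraries 1 and 2 (adjusted p = 0.0681) and with at least 4 *Ghrh* UMIs asked of a nucleus (0.157). *Socs2*, an inhibitor of growth hormone signalling that the hormone induces, was at 58.4, 132, 49.9, 50.1, 47.0 and 24.0 CPM in the 6 libraries against 18.7 to 42.9 CPM (log2FC 0.71 ± 0.17 (SE), adjusted p = 0.00949).

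Those 3 were the called genes among 9 tested on a list of 22 genes of the axis, and 0 were lower, while 4.78% of all genes tested were higher and 5.3% lower. The kinase gene *Jak2* and the transducer gene *Stat5b*, which act below the receptor, did not pass (log2FC -0.19 ± 0.18 and 0.04 ± 0.13), nor did the insulin receptor gene *Insr* (-0.31 ± 0.16) or *Irs2* (0.63 ± 0.23). Receptors of ghrelin, somatostatin and GLP1 were sparse. *Ghsr*, the ghrelin receptor gene, had 13 UMIs in as many GHRH neurons (4.71% against 0.372% of other neurons), and after thinning 0 of 274 nuclei had a UMI. Of the somatostatin receptor genes, *Sstr2* was found in 10.1% against 5.20% (1.82% against 1.64% after thinning), *Sstr5* in 3.99% against 0.602%, *Sstr1* in 3.62% against 3.29%, and *Sstr3* and *Sstr4* in 1 nucleus each. *Ghrhr*, the receptor of the peptide itself, had 0 UMIs in GHRH neurons, which allows a share of up to 1.33% of nuclei with a UMI by the exact binomial interval. *Glp1r* was found in 11 nuclei (3.99%, interval 2.01 to 7.02%), against 1.74% of other neurons (0.730% against 0.624% after thinning). Of the oligodendrocyte-like nuclei, 0 had a *Ghsr* or *Glp1r* UMI and 0.343% had *Sstr2*. These genes lay under the minimum level, and none of them was tested.

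Receptors of other hormones split in both directions, with 3 of 8 tested genes higher and 3 lower, against 4.78% and 5.3% of all genes tested. *Esr1* (chromosome 10, 4611593 to 5005614, plus strand), the gene of estrogen receptor alpha, was at 234, 475, 219 and 186 CPM in ad libitum-fed libraries 1 to 4 and 486 and 384 CPM in the fasted libraries, against 33.6 to 46.1 CPM in other neurons. The lowest GHRH value was several times the highest value of other neurons (log2FC 2.65 ± 0.14 (SE), adjusted p = 2.96e-09), and *Esr1* was found in 61.2% of GHRH neurons, 16.2% of other neurons and 1.60% of oligodendrocyte-like nuclei. The progesterone receptor gene *Pgr* was at 210.2, 121, 124, 142, 266 and 132 CPM against 46.7 to 52.1 CPM (log2FC 1.46 ± 0.13 (SE), adjusted p = 1.02e-06), and the glucocorticoid receptor gene *Nr3c1* was slightly higher (log2FC 0.64 ± 0.15, adjusted p = 0.00240). *Prlr*, the prolactin receptor gene, was at 35.0, 10.1, 45.7 and 46.9 CPM in ad libitum-fed libraries 1 to 4 and 0 and 0 CPM in the fasted libraries. Other neurons had 90.0 to 101 CPM, so every library of GHRH neurons lay below them (log2FC -1.37 ± 0.26 (SE), adjusted p = 0.00242), a call that DESeq2 did not make (adjusted p = 0.383). The thyroid hormone receptor gene *Thrb* (log2FC -1.02 ± 0.13) and the mineralocorticoid receptor gene *Nr3c2* (-0.57 ± 0.15) were also lower.

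Among 29 genes of receptors for feeding and metabolic signals, 9 were tested, 3 were higher and 2 lower (4.78% and 5.3% of all genes tested). The neuropeptide Y receptor genes led. *Npy1r* was at 75.9, 80.9, 74.8, 59.5, 78.3 and 84.0 CPM against 16.0 to 25.3 CPM (log2FC 1.69 ± 0.16 (SE), adjusted p = 2.47e-06), and *Npy5r* at 99.3, 142, 80.0, 103, 62.7 and 168 CPM against 20.8 to 23.0 CPM (log2FC 2.11 ± 0.15 (SE), adjusted p = 1.31e-07). Neither overlapped between the populations in any library. The calcitonin receptor gene *Calcr* was higher (log2FC 1.14 ± 0.24), while the serotonin receptor gene *Htr2c* (-0.88 ± 0.13) and the orexin receptor gene *Hcrtr2* (-1.51 ± 0.22) were lower. The leptin receptor gene *Lepr* had 17.5, 101, 32.2, 25.0, 47.0 and 144 CPM in GHRH neurons against 18.8 to 29.4 CPM. It missed the threshold (log2FC 0.77 ± 0.25 (SE), adjusted p = 0.0574) and passed it in 12 alternatives, with adjusted p from 0.00569 to 0.147 over the alternatives run. In library 1, GHRH neurons lay below other neurons.

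For fast transmitters, *Gad2*, which encodes a GABA-making enzyme, was higher in GHRH neurons, at 181, 142, 193, 158, 188 and 144 CPM against 66.0 to 139.5 CPM (log2FC 0.73 ± 0.16 (SE), adjusted p = 0.00164). The GABA-degrading enzyme gene *Abat* was higher too (log2FC 0.44 ± 0.12), while *Gad1* (0.42 ± 0.18) and the vesicular transporter gene *Slc32a1* (-0.02 ± 0.19) did not pass. *Slc17a6*, for the vesicular glutamate transporter VGLUT2, was at 29.2, 20.2, 63.4, 97.0, 0 and 12.0 CPM against 61.3 to 149.7 CPM and was lower (log2FC -0.94 ± 0.16 (SE), adjusted p = 0.000654). GHRH neurons were below other neurons for *Slc17a6* in each library, but libraries 3 and 4 kept the highest levels.

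Of 30 neuropeptide genes, 16 were tested, 3 were higher and 5 lower, where 4.78% and 5.3% of all genes tested were. Beside *Gal* and *Penk*, *Cartpt*, for the appetite-related peptide CART, was higher, at 315, 212, 2328 and 1449 CPM in ad libitum-fed libraries 1 to 4 and 31.3 and 732 CPM in the fasted libraries (log2FC 2.67 ± 0.43 (SE), adjusted p = 0.0436). Fasted library 1, with 9 nuclei, lay far below fasted library 2, and the call was lost in 4 alternatives, without fasted replicate 1 (adjusted p = 0.200) and without libraries 3 and 4 (0.193) among them. *Sst*, *Tac1*, *Avp*, *Oxt* and *Hcrt*, the genes of somatostatin, substance P, vasopressin, oxytocin and orexin, were lower (log2FC -0.59, -1.21, -0.76, -0.71 and -1.85). *Pnoc* was not called (0.12 ± 0.22), nor *Pomc* (0.81 ± 0.35), nor *Trh*. Among 20 genes of peptide processing and dense core vesicles, 4 were higher (*Cadps2* 1.47, *Sv2c* 1.31, *Vgf* 0.87 and *Scg3* 0.65) and the prohormone convertase gene *Pcsk2* was lower (-0.75).

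Regional transcription factors had 5 of 9 tested genes higher and 2 lower, beside 4.78% and 5.3% over all genes. *Pbx3* (log2FC 2.02), *Prox1* (1.80), *Foxp2* (1.75), *Dlx1* (1.63) and *Isl1* (1.16) were higher, and *Zfhx3* (-1.45) and *Zfhx4* (-0.97) were lower. *Isl1*, known to act in the formation of arcuate neurons, was at 181, 192, 152, 122, 235 and 252 CPM against 62.4 to 77.4 CPM. *Foxo1*, a transcription factor held back by insulin signalling, was at 35.0, 60.7, 43.7 and 40.7 CPM in ad libitum-fed libraries 1 to 4 and 141 and 96.0 CPM in the fasted libraries, against 6.71 to 16.3 CPM (log2FC 2.46 ± 0.24 (SE), adjusted p = 2.48e-06). It was higher than in other neurons in each library and highest in the fasted libraries. *Bcl6* was higher as well (1.66 ± 0.17), as were the activity-linked genes *Gem* (1.62) and *Crem* (0.69). Of 6 glucocorticoid-responsive and 7 core clock genes tested, 0 were called, which is near the share over all genes (4.78% higher and 5.3% lower) for lists of this size.

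Beyond the lists, the called genes with the highest log2FC at a mean of at least 50 CPM were *Gal*, *Colec12*, *Mbnl3*, *Th*, *Syndig1l* (3.14), *Gpr179* (2.85), *Asb4* (2.76), *Cartpt*, *Esr1*, *Etfbkmt* (2.55), *Foxo1*, *Lancl3* (2.40), the netrin receptor gene *Unc5b* (2.30), the estrogen-regulated gene *Greb1* (2.25) and *Zar1* (2.25). *Zar1* was at a mean of 67.3 CPM in GHRH neurons and 75.9 CPM in AgRP neurons, between which it did not pass (log2FC -0.38 ± 0.26). *Asb4*, known as an arcuate gene, was at 87.6, 303, 183, 98.6, 251 and 156 CPM against 20.0 to 24.4 CPM. The lowest were *Rgs6* (-2.33), which regulates G protein signalling, the adhesion gene *Cntn5* (-2.12), *Rerg* (-2.10), *Nfib* (-2.10), the guidance receptor gene *Epha7* (-2.05), *Il1rapl1* (-1.99), *Car10* (-1.96) and *Man1a* (-1.96). *Rgs6*, *Rerg*, *Nfib*, *Epha7* and *Man1a* averaged under 20 CPM in GHRH neurons. They were tested only because they were high in other neurons, and their calls are no independent support. Of the raised genes, *Colec12*, *Mbnl3*, *Th*, *Gpr179*, *Foxo1* and *Lancl3* were under 20 CPM in other neurons of every library. These, and any other raised gene that averaged under that level there, were tested only through GHRH neurons. Their calls are no independent support either.

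Marker lists of other cells were summed for GHRH neurons and other neurons. The 7 oligodendrocyte markers summed to 99.3, 111, 133, 138, 94.0 and 96.0 CPM in the 6 libraries, against 99.8 to 267 CPM in other neurons, with *Mbp* the most abundant, and 0 of 2 tested were called. Astrocyte markers summed to 10.4 to 47.0 CPM (18.1 to 62.8 in other neurons, 0 tested) and microglia markers to 30.3 to 75.9 CPM (42.7 to 66.1, 0 of 1 called). Tanycyte markers, led by *Col25a1*, which was called lower, summed to 75.9 to 149 CPM against 198 to 333. Endothelial markers summed to at most 11.7 CPM, with 4 of 6 genes at 0, and the 6 pars tuberalis and pituitary markers were at 0 in 3 libraries, with 3 genes at 0 throughout. The 4 markers of AgRP neurons summed to 36.0 to 80.0 CPM, with *Agrp* itself held down by the rule. The 4 POMC neuron markers summed to 356, 223, 2677, 1712, 62.7 and 732 CPM, led by *Cartpt*, against 62.0 to 481 CPM in other neurons, and the 4 markers of KNDy neurons to 20.2 to 78.2 CPM against 16.7 to 83.7. The part of neurons of these types in the *Cartpt* level was not tested. Ribosomal protein genes ran higher in GHRH neurons, 35 of 88 tested being called and 0 lower, where 4.78% and 5.3% of all genes tested were (median log2FC 0.45), and their part in the other differences was not tested. Of the 276 nuclei, 18 were marked as likely doublets by UMI count or glial markers, and leaving them out gave 381 genes higher and 387 lower.

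**Figure D3:**
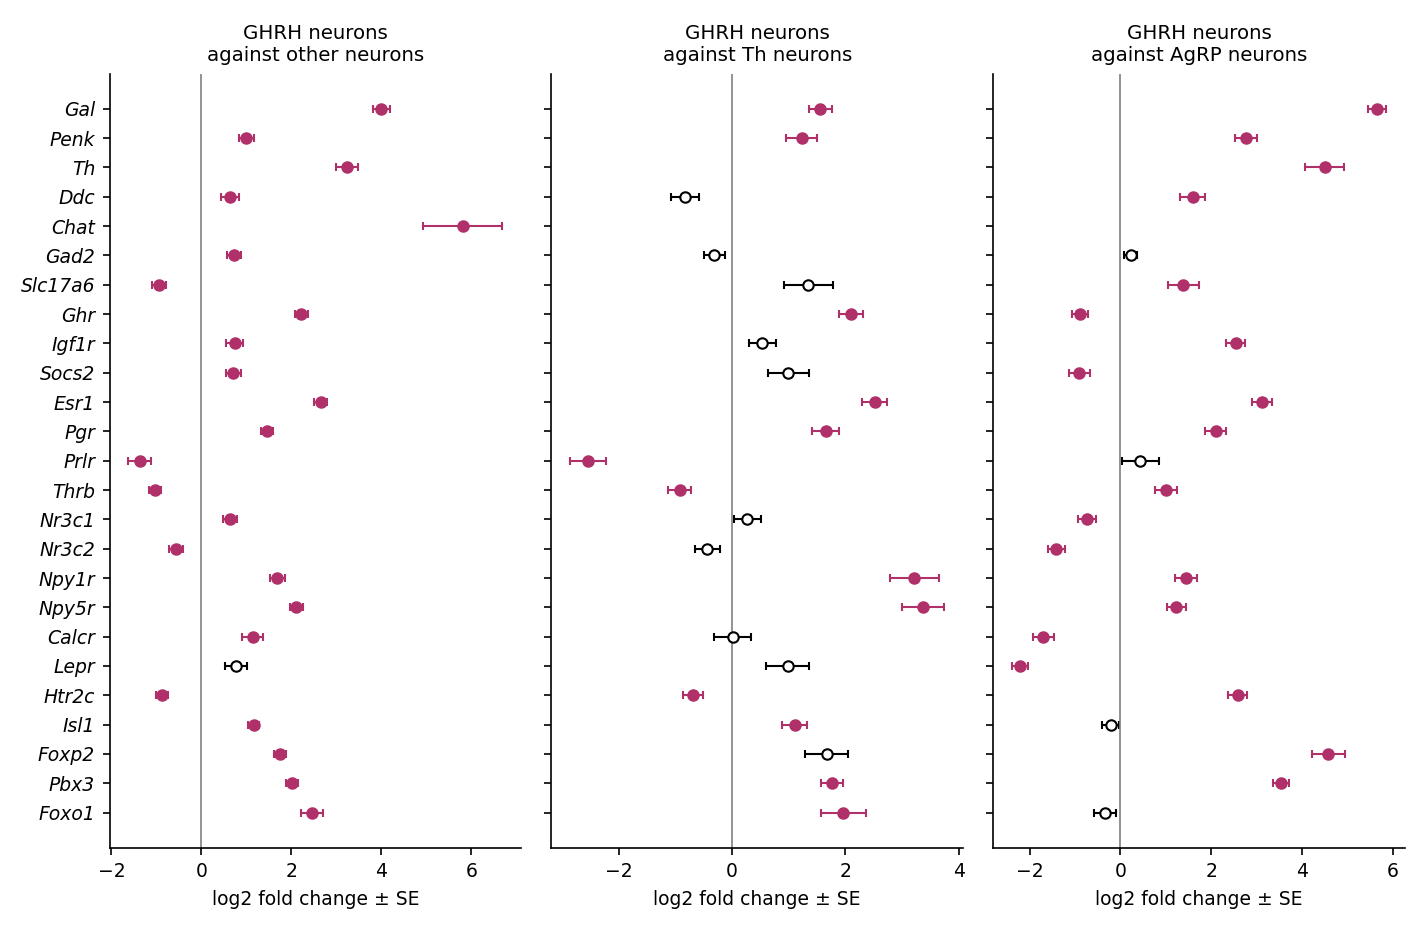
Log2 fold change ± SE from edgeR of 25 genes in GHRH neurons against other neurons, against *Th* neurons without *Ghrh* and against AgRP neurons. Filled points passed an adjusted p of 0.05, open points did not, and *Chat* is left out where it rested on at most 1 UMI. *Gal*, *Penk*, *Esr1*, *Pgr*, *Npy1r*, *Npy5r* and *Pbx3* are filled on the right in all 3 panels, and *Ghr* changes side against AgRP neurons (-0.90). *Npy1r* and *Npy5r* averaged under the filter's 20 CPM in *Th* neurons.

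Neurons that share *Th* were the nearest comparison by dopamine markers. The 128 *Th* neurons had 0 *Ghrh* UMIs and met the same kind of threshold for *Th*, and their *Th* level is thus set by that choice. Against them 108 of 8247 genes were higher in GHRH neurons (1.31%) and 140 lower (1.7%) by the same test, and without libraries 3 and 4 the counts were 99 and 135. *Trh*, the thyrotropin-releasing hormone gene, was among the genes most raised (log2FC 5.65 ± 0.31), with *Colec12* (4.14), *Mbnl3* (4.11), *Syndig1l* (3.46), *Npy5r* (3.37), the GDNF receptor gene *Gfra1* (3.28), *Npy1r* (3.21) and the potassium channel gene *Kcnh8* (3.14). Of these, all but *Kcnh8* averaged under the filter's 20 CPM in *Th* neurons. Such genes were tested only because they were high in GHRH neurons, and their calls are no independent support. For *Trh*, 32 of the 276 GHRH neurons held 96.1% of the UMIs, here and against AgRP neurons. *Chat* was at 4.67 CPM in *Th* neurons of library 3 and at 0 in the other 5 libraries. *Npy1r* was at 75.9, 80.9, 74.8, 59.5, 78.3 and 84.0 CPM in GHRH neurons and at 0, 0, 9.34, 17.5, 11.5 and 0 CPM in *Th* neurons, a gap in every library. *Gal* (1.56), *Ghr* (2.09) and *Esr1* (2.52) were higher too.

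The genes lower than in *Th* neurons included *Slc8b1* (-3.63), the sodium channel gene *Scn7a* (-3.15), *Avp* (-3.14), *Plch1* (-2.54), *Prlr* (-2.54), *Sntg2* (-2.50) and *Kcnh1* (-2.35). *Slc8b1*, *Scn7a*, *Plch1* and *Sntg2* averaged 2.34, 2.43, 15.7 and 12.4 CPM in GHRH neurons. They passed the 20 CPM filter only through *Th* neurons, and their calls are no independent support. *Slc8b1* was at 61.4, 0, 0, 268, 5.74 and 0 CPM in *Th* neurons, so libraries 1 and 4 carried its level. *Slc18a2* was lower (log2FC -1.69 ± 0.36 (SE), adjusted p = 0.00555), while *Ddc* did not pass (log2FC -0.83 ± 0.25 (SE), adjusted p = 0.0586), and neither did *Gad2*, *Gad1* or *Slc32a1*. *Prlr*, which dopamine neurons of the arcuate nucleus use to sense prolactin, was at 492, 183, 234, 117, 155 and 54.9 CPM in *Th* neurons, above GHRH neurons in every library, and DESeq2 gave it an adjusted p of 0.105. *Slc8b1* lost its call in 4 alternatives and *Plch1* in 2.

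AgRP neurons, the GABAergic feeding neurons of the same nucleus, were taken as 310 nuclei with 0 *Ghrh* UMIs. Of 8251 genes, 328 were higher in GHRH neurons (3.98%) and 229 lower (2.78%), and without libraries 3 and 4 the counts were 242 and 137. Among genes of at least 50 CPM, the most raised were *Colec12*, *Trh* (log2FC 5.68), *Gal* (5.65), *Mbnl3* (5.30), *Foxp2* (4.58), *Reln* (4.55), *Th* (4.50) and *Greb1* (4.12). Of these, *Colec12*, *Trh*, *Mbnl3*, *Th* and *Greb1* averaged at most 11.6 CPM in AgRP neurons. They passed the 20 CPM filter only through GHRH neurons, and their calls are no independent support. *Colec12* was at 7.63 CPM in AgRP neurons of library 1 and at 0 in the other 5 libraries, and *Chat* was at 0 in all 6. The most lowered were the protease gene *Corin*, *Npy* (-6.51), *Serpina3n* (-4.75), *Fli1* (-4.57), *Acvr1c* (-4.25), *Pdgfd* (-3.60), *Tbx3os1* (-3.25) and *Ppfibp2* (-3.24). *Corin* was at 145, 217, 81.3, 68.5, 161 and 229.7 CPM in AgRP neurons, and in GHRH neurons at 1.04 CPM in library 3 and at 0 elsewhere. It therefore passed the filter only through AgRP neurons, and so did *Serpina3n*, which also averaged under 20 CPM in GHRH neurons. The same holds for any other gene of this row that averaged under 20 CPM there, and such calls are no independent support. *Npy* is made with AgRP in AgRP neurons.

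Receptors differed in both directions between these neighbours. *Ghr* was at 1899, 1177, 1126, 1035, 2748 and 2818 CPM in AgRP neurons, above GHRH neurons in ad libitum-fed libraries 1, 3 and 4 and in both fasted libraries (log2FC -0.90 ± 0.17 (SE), adjusted p = 0.000302), and *Socs2* was lower in GHRH neurons too (-0.91 ± 0.23). *Igf1r* went the other way, at 30.5, 50.1, 10.9, 17.1, 38.1 and 80.2 CPM in AgRP neurons (log2FC 2.55 ± 0.21 (SE), adjusted p = 1.63e-07). *Lepr* was lower in GHRH neurons (-2.21 ± 0.18), as were *Calcr* (-1.70), *Npy2r* (-3.22), *Nr3c1* (-0.73) and *Nr3c2* (-1.41). *Htr2c* (2.59), *Esr1* (3.12), *Pgr* (2.10), *Npy1r* (1.45) and *Npy5r* (1.23) were higher. *Foxo1* (log2FC -0.33 ± 0.24 (SE), adjusted p = 0.725), *Isl1* (log2FC -0.21 ± 0.18 (SE), adjusted p = 0.807) and the GABA genes *Gad1*, *Gad2* and *Slc32a1* did not pass between the populations. The 16 genes of this comparison chosen by size kept their call and direction under each of the alternatives that were run for them.

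GHRH neurons were not uniform. By their GABA genes (*Slc32a1*, *Gad1* and *Gad2*) against *Slc17a6*, 141 were GABAergic, 19 glutamatergic and 116 neither. All 19 glutamatergic nuclei came from libraries 3 and 4, so the classes could not be tested across pools and are described within these 2 libraries. There, 111 GABAergic nuclei had a median of 19 *Ghrh* UMIs, 19 glutamatergic nuclei a median of 5 (highest 22) and 64 others a median of 7. *Gal* was found in 91.0% of GABAergic and 52.6% of glutamatergic nuclei, *Th* in 45.9% and 10.5%, *Esr1* in 76.6% and 31.6%, and *Ghr* in 82.9% and 57.9%. *Chat* was found in 27.9% of GABAergic and in 0 of 19 glutamatergic nuclei, which allows a share of up to 17.6%. The glutamatergic nuclei had a median of 11251 UMIs and the GABAergic nuclei one of 7650.

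*Trh* (chromosome 6, 92242061 to 92244650, minus strand) showed the opposite split, in 73.7% of glutamatergic and 20.7% of GABAergic nuclei. The transcription factor gene *Sim1*, which is needed to form neurons of the paraventricular nucleus and was looked up after the *Trh* values were seen, was found in 73.7% and 3.60%. The *Trh* counts rested on few cells. With a line at 10 *Trh* UMIs, also drawn after the values were seen, 32 GHRH neurons (11.6%) held 96.1% of all *Trh* UMIs of the population, and 30 of them were in libraries 3 and 4. Of these 32 nuclei, 22 had *Slc17a6*, 26 *Sim1*, 13 *Gal*, 3 *Esr1* and 1 an acetylcholine gene. Of the other 244, 41 had *Slc17a6*, 15 *Sim1*, 189 *Gal*, 166 *Esr1* and 90 an acetylcholine gene. Their median *Ghrh* count, which the rule used, was 9.5 UMIs against 6 in the other 244 over all libraries, but 9 and 7 in libraries 3 and 4, where all GHRH neurons, these included, had medians of 15 and 11. Whether they are a neuron type of their own was not tested.

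The summed *Trh* level was accordingly uneven, at 87.6, 30.3, 1359 and 1242 CPM in ad libitum-fed libraries 1 to 4 and 298 and 192 CPM in the fasted libraries. It did not pass against other neurons (log2FC 3.37 ± 0.76 (SE), adjusted p = 0.193). A list of 9 genes of *Trh*- and *Ghrh*-expressing glutamatergic neurons had 2 tested genes, and 0 were called.

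**Figure D4:**
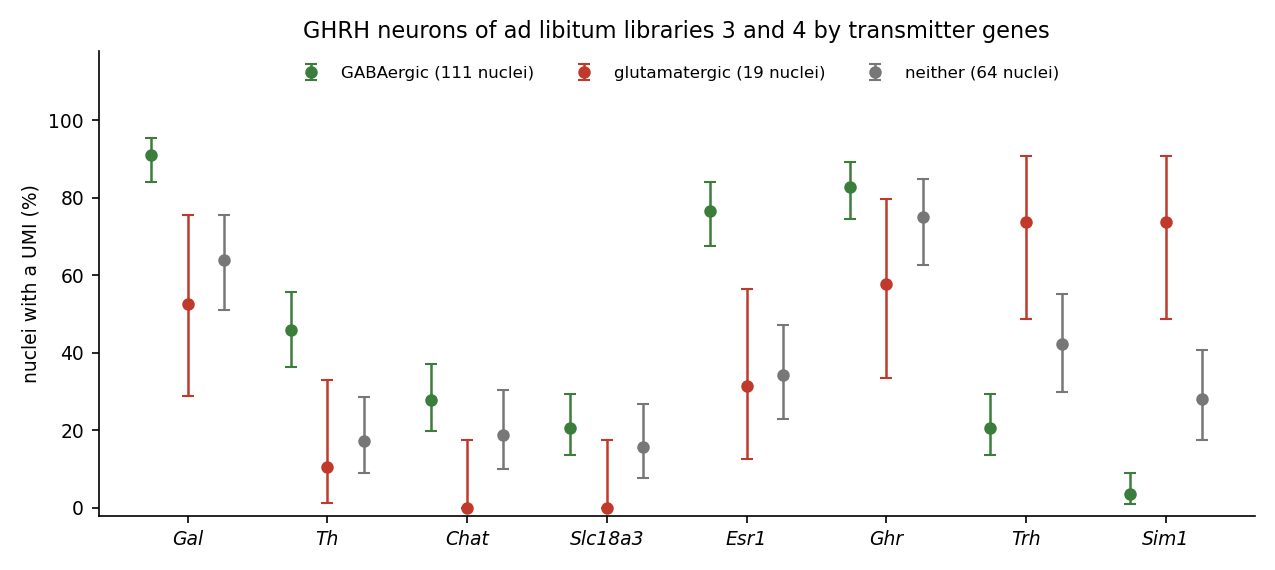
Share of GHRH neurons with at least 1 UMI of each of 8 genes (percent, with 95% exact binomial intervals) in ad libitum-fed libraries 3 and 4, by class of fast transmitter genes. *Gal*, *Th*, *Chat* and *Esr1* are highest in the 111 GABAergic nuclei, and *Trh* and *Sim1* are highest, at 73.7%, in the 19 glutamatergic nuclei.

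Fasting was asked first of the number of cells and of *Ghrh* itself. GHRH neurons were 0.522%, 0.379%, 1.88% and 1.23% of neuronal nuclei in ad libitum-fed libraries 1 to 4 (mean 1.00 ± 0.692%, SD, n = 4 libraries of 2 pools) and 0.199% and 0.273% in the fasted libraries (0.236 ± 0.0523%, SD, n = 2 libraries of 1 pool). Both fasted values lay below all ad libitum-fed ones, but the interval of fasted library 2 (0.141 to 0.476%) overlapped those of libraries 1 and 2 (0.371 to 0.712% and 0.237 to 0.573%), while libraries 3 and 4 stood far above. After thinning, 1.71%, 1.89%, 4.83% and 3.56% of neuronal nuclei had a *Ghrh* UMI with ad libitum feeding, and 0.716% and 0.827% after the fast. With 2 pools against 1, an exact permutation test over pools cannot reach significance, and none was run.

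Over all neuronal nuclei, with no threshold on *Ghrh*, its level was 10.8, 9.64, 76.8 and 46.3 CPM with ad libitum feeding and 4.36 and 4.85 CPM after the fast. The fasted libraries were lowest, yet the ad libitum-fed libraries differed among themselves by more than libraries 1 and 2 differed from the fasted ones (edgeR log2FC -3.14 ± 1.60, adjusted p = 1.00). The threshold was passed with libraries 1 and 3 as a pool against 2 and 4 (log2FC -3.32) and with the replicate number as a block (-1.20). That pairing put libraries 3 and 4 in different pools, so the split between library pairs was not in its spread between pools. In the block fit libraries 3 and 4 had no fasted partner, and the tubes of a pool counted as replicates. Neither is read as a fall of *Ghrh* with fasting. Fewer GHRH neurons, less *Ghrh* RNA per nucleus and the split between library pairs cannot be told apart here.

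Within GHRH neurons, 255 ad libitum-fed nuclei were compared with 21 fasted ones, pool by pool. Of 8172 genes, 0 were called higher (0%) and 0 lower (0%) by edgeR at an adjusted p under 0.05, and 0 by DESeq2. Without adjustment 72 genes were higher (0.881%) and 170 lower (2.08%) at a p under 0.05. The groups did not overlap for many more, with the 2 fasted values on top of the 4 ad libitum-fed values in 1231 genes (15.1%) and beneath them in 972 (11.9%). This depended on which ad libitum-fed libraries were taken as a pool. With libraries 1 and 3 against 2 and 4, 481 genes were higher and 944 lower, with 1 and 4 against 2 and 3 the counts were 359 and 853, and with the replicate number as a block 16 and 40. With libraries 1 and 2 against 3 and 4 they were 0 and 0. The 11 fasting genes whose alternatives were followed each passed under the first and the second of these pairings. Both of these put libraries 3 and 4 in different pools, so the split between library pairs is not in their spread between pools. The block fit counted the tubes of a pool as replicates. No fasting change is read from these counts. The values that follow are descriptions of genes that did not pass by the largest p over the pairings.

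*Zbtb16*, a transcription factor gene that glucocorticoids induce, had the highest fasted values relative to ad libitum among the genes picked by size. It was at 5.84, 0, 11.4 and 28.2 CPM in ad libitum-fed libraries 1 to 4 and 157 and 132 CPM in the fasted libraries, and at 16.9, 15.4, 16.6, 16.0, 73.8 and 71.8 CPM in other neurons, so that fasted libraries were above ad libitum-fed ones in both populations (log2FC in GHRH neurons 3.21 ± 0.81, adjusted p = 0.929 by edgeR). *Errfi1*, another glucocorticoid-responsive gene, was at 23.4, 40.5, 27.0, 34.4, 78.3 and 120.0 CPM (log2FC 1.64 ± 0.57). Over all neuronal nuclei *Errfi1* averaged 23.8 CPM ad libitum and 38.7 CPM after the fast, again with both fasted libraries above the rest. Of 7 tested genes of the glucocorticoid-responsive list, 6 had a positive log2FC, as had 3852 of all 8172 genes. The median was 0.70, against -0.02 over all genes. The list of FoxO targets and fasting genes also had 6 of 7 positive, at a median of 0.35, so this is not particular to the glucocorticoid list. *Fkbp5* was at 17.5, 40.5, 48.9, 29.7, 31.3 and 168 CPM, with the fasted libraries far apart.

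The other genes that the size rule picked as higher were *Lancl3* (log2FC 1.99), *Aebp2* (1.99), *Myrip* (1.85), *Lrfn2* (1.80), *Gpr179* (1.79), *Rab31* (1.78), *Kcnab1* (1.76), *Bcas3* (1.73) and *Utp20* (1.66). *Lancl3* was at 35.0, 50.6, 40.5 and 54.8 CPM in ad libitum-fed libraries 1 to 4 and 204 and 180.0 CPM in the fasted libraries. It was at 12.2, 11.8, 8.96, 10.9, 18.3 and 13.5 CPM in other neurons and 15.3, 33.4, 21.9, 27.1, 132 and 76.6 CPM in AgRP neurons. The fasted libraries were the highest in each of these populations. *Gpr179* was at 46.7, 40.5, 41.6, 36.0, 204 and 120.0 CPM in the same order. Other neurons had 7.76, 7.45, 6.03, 3.78, 15.4 and 16.0 CPM of it, also with the fasted libraries highest. In AgRP neurons its groups overlapped (37.1 to 53.4 CPM ad libitum, 44.0 and 62.0 CPM fasted). *Lancl3* and *Gpr179* were already among the genes most raised in GHRH neurons, and *Igf1r* (1.35 ± 0.58) and *Foxo1* (1.29 ± 0.55) also had both fasted libraries above the rest. These steps were not particular to GHRH neurons. *Foxo1* was at 10.9, 9.56, 6.71, 6.83, 16.3 and 15.05 CPM in other neurons, and its fasted libraries were also highest in AgRP neurons. Over all neuronal nuclei *Igf1r* averaged 73.2 CPM ad libitum and 106 CPM after the fast, with both fasted libraries above the rest. *Ghr* (0.29 ± 0.53), *Esr1* (0.61 ± 0.49), *Th* (-0.16 ± 0.67) and *Chat* (0.40 ± 0.63) had overlapping groups.

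On the lower side the picked genes, *Oxt*, *Npm1*, *Ndufc1*, *Uqcrb*, *Mif*, *Cisd1*, *Fis1*, *Pam16*, *Rtraf* and *Chsy3*, were at 0 in both fasted libraries, whose GHRH neurons held few UMIs in sum, and their fold is not given. *Gal* was lower in the fasted libraries, at 47.0 and 216 CPM, than in any ad libitum-fed one (log2FC -3.60 ± 1.30, adjusted p = 0.929 by edgeR), and it was lower in other neurons as well. All 14 tested neuropeptide genes had a negative log2FC (median -2.39), as had 83 of 88 ribosomal protein genes (median -2.63) and 8 of 8 mitochondrially encoded genes (median -3.57). These 3 groups also divide ad libitum-fed libraries 3 and 4 from 1 and 2, and the part of that split in the fasting values was not tested. The plot of 8 genes by library shows the same step from library 2 to library 3 for *Gal*, *Penk* and *Scg2*.

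**Figure D5:**
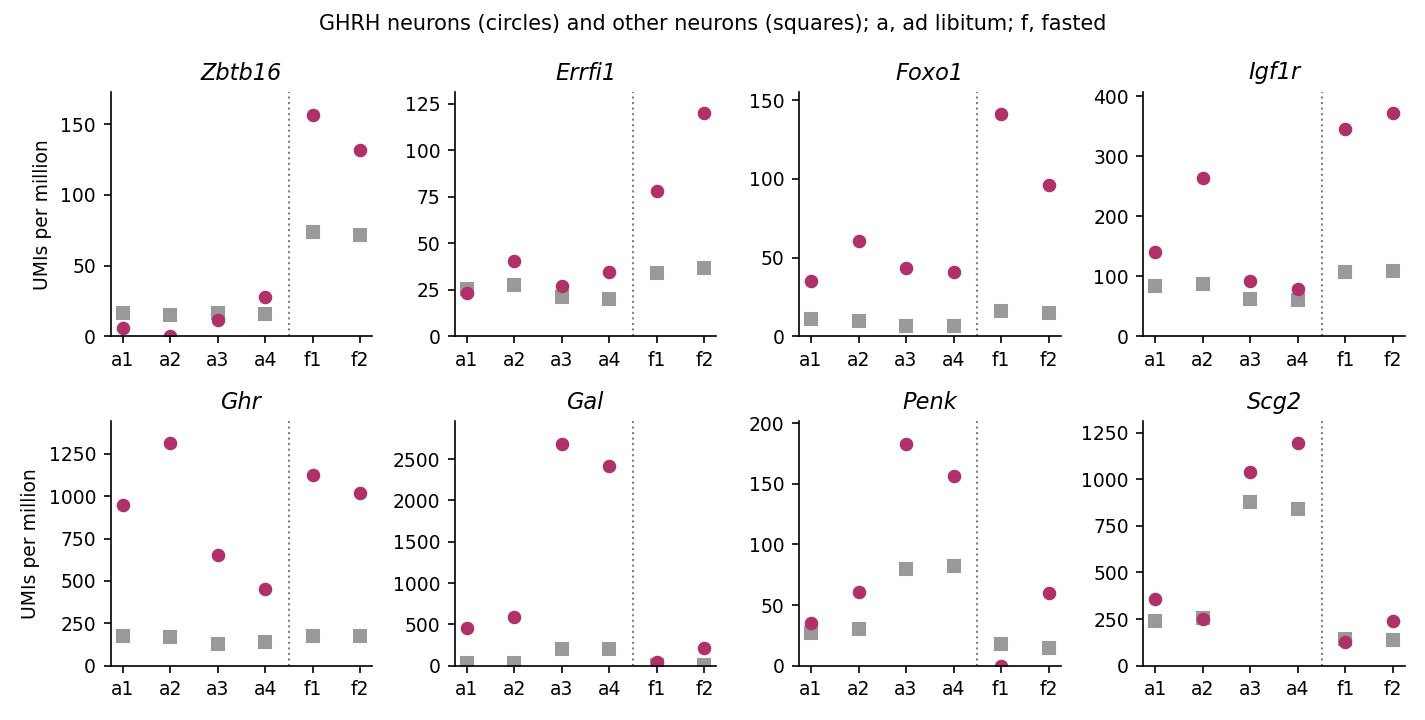
Level (CPM of the summed nuclei, linear scale from 0) of 8 genes in GHRH neurons (circles) and other neurons (squares), 1 pair of points per library, with ad libitum-fed libraries a1 to a4 left and fasted libraries f1 and f2 right of the dotted line. The fasted points of *Zbtb16* and *Errfi1* lie above all ad libitum-fed ones, and *Gal*, *Penk* and *Scg2* are highest in a3 and a4.

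A last comparison asked whether fasting moved a gene differently in GHRH neurons than in other neurons of the same pools. Of 8243 genes, 10 had a higher change in GHRH neurons (0.121%) and 6 a lower one (0.0728%). *Kcnab1*, for a potassium channel subunit, was at 158, 263, 127, 100.2, 689 and 456 CPM in GHRH neurons and at 153, 152, 94.4, 97.5, 149 and 150.2 CPM in other neurons (difference in log2FC 1.56 ± 0.27, edgeR adjusted p = 5.79e-05). Fasted GHRH neurons stood above their ad libitum-fed counterparts while other neurons showed no such step. *Erbb4*, the neuregulin receptor gene, was at 876, 749, 349, 401, 125 and 144 CPM against 914, 899.6, 646, 610.2, 703 and 699 CPM (-1.56 ± 0.30, adjusted p = 0.0128 by edgeR), and the imprinted gene *Nnat* was at 946, 698, 831, 865, 329 and 360.1 CPM against 687, 724, 608, 571, 737 and 681 CPM (-1.47 ± 0.28). Both were lower in fasted than in ad libitum-fed GHRH neurons, with no overlap. These calls rested on 21 fasted nuclei. DESeq2 made 0 of them, and 0 of the genes were called without ad libitum replicate 3 or without replicate 4. *Igf1r* and *Zfhx3* missed the threshold (differences of 1.00 ± 0.29 and -1.20 ± 0.30, adjusted p = 0.105 and 0.0912 by edgeR), and of the 16 tested neuropeptide genes 0 were called.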

How the data were processed

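Male C57Bl/6 hypothalami were profiled by nucSeq in 6 libraries of 31757655 to 59940795 UMIs, 4 ad libitum-fed and 2 fasted. The deposited values are raw UMI counts of 55399 genes per nucleus, which the authors made with Cell Ranger 5.0.1 on GRCm38 (mm10) and an Ensembl 100 annotation. Coordinates are those of GENCODE M21, on the same build.

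The rule was applied to these counts, and counts were summed per library and population. As mice were pooled before sorting, libraries of 1 pool were summed and edgeR 4.0.16 (quasi-likelihood, TMM, genes with a mean of at least 20 CPM) was fitted for each of the 3 ways to pair the ad libitum-fed libraries. The largest p was kept per gene and adjusted by the Benjamini-Hochberg method. The spread of the 1 fasted pool was taken to equal that of the fed pools. DESeq2 1.42.0, other normalization, filters, pools, stricter cells and left-out libraries were alternatives. Genes of at least 50 CPM were named by size (15 higher and 8 lower against other neurons, up to 8 each way against *Th* and AgRP neurons, and for fasting up to 10 each way among those with no overlap), and others from lists. The members and lists were chosen with earlier results of these data known. On simulated counts, 54% of genes changed 4-fold were recovered against other neurons, 42% against *Th* neurons, 61% against AgRP neurons, 16% for fasting and 1% for the interaction (8243, 8247, 8251, 8172 and 8243 genes), and of genes changed 2-fold 1%, 6%, 4%, 3% and 1%. Likely doublets were the top 5% of nuclei by UMIs in a library or those with at least 3 glial UMIs, and were kept. Neurons for comparison needed 0 *Ghrh* UMIs. *Th* neurons needed at least 2 *Th* UMIs and 3 per 10000, AgRP neurons at least 5 *Agrp* UMIs and 10 per 10000, and oligodendrocyte-like nuclei at least 10 UMIs over a set of oligodendrocyte marker genes with 0 neuronal UMIs. A few genes are not reported here. GABAergic nuclei had at least 2 GABA UMIs and more than 2 times the *Slc17a6* count, and the reverse held for glutamatergic nuclei. Intervals cover counting error only.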

Additional observations from a re-analysis of the deposited data

Results flagged for a closer look

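In ad libitum-fed GHRH neurons, *Esr1* of library 2 (475 CPM) lay apart from libraries 1, 3 and 4 (234, 219 and 186 CPM), with a gap of 0.836 of the group's whole range. *Car10* of library 2 (101 CPM) lay below the other libraries (204, 204 and 203 CPM), with a gap of 0.991 of the range. They were 2 of 37 values examined in this way, and chance gives about 1 in 20. Library 2 had 22 GHRH neurons.

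The fasting change differed between GHRH neurons and other neurons for 16 genes by edgeR's interaction test. Of these, 15 are given here. The difference in log2FC was 0.93 for *Xkr4*, 1.28 for *Syt14*, 1.56 for *Kcnab1*, 1.31 for *Cntn4*, 1.15 for *Ube2e2*, 0.91 for *Asic2*, 1.35 for *Bcas3*, 1.38 for *Lrfn2* and 4.00 for the transcript *A830019P07Rik*, all higher in GHRH neurons. It was -1.56 for *Erbb4*, -1.47 for *Nnat*, -1.46 for *Grm7*, -1.73 for *Cntn5*, -1.23 for *Ntm* and -1.60 for *Ncam2*. *Cntn4* was at 263, 91.0, 186, 219, 266 and 888 CPM in GHRH neurons of the 6 libraries, so fasted library 2 carried most of its rise. DESeq2 called 0 of the 16 genes, and at an unadjusted p under 0.05 it listed 101 genes higher and 90 lower.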

How the results depend on the processing

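A limit is that the pool, of which only 1 was fasted, is the replicate, and that libraries 3 and 4 hold 70.3% of the GHRH neurons. Against other neurons the counts moved to 924 higher and 693 lower with libraries 1 and 3 against 2 and 4 as pools, 893 and 692 with 1 and 4 against 2 and 3, and 733 higher with 6 separate samples. They were 218 and 243 by DESeq2, 757 lower with no filter, 241 and 287 without libraries 3 and 4, and 277 lower without 1 and 2 (both chosen after seeing the data). Leaving out 1 library gave 286 to 393 higher and 284 to 431 lower. Against *Th* neurons they were 171 higher with pools 1+2 and 3+4, 228 with 1+3 and 2+4, 208 and 221 with 1+4 and 2+3, 194 higher with 6 samples, 44 and 53 by DESeq2, and 69 to 101 and 95 to 155 with 1 library left out. Against AgRP neurons DESeq2 gave 192 and 104, 137 were lower without libraries 3 and 4, and leaving out 1 library gave 250 to 325 and 149 to 245.

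For fasting, 481 genes rose and 944 fell with pools 1+3 and 2+4, 359 and 853 with 1+4 and 2+3, 1 and 90 with no filter, and 0 in each direction with any 1 library left out. The interaction gave 17 and 15 genes with pools 1+2 and 3+4, 186 and 39 with 1+3 and 2+4, 111 and 20 with 1+4 and 2+3, 0 and 0 by DESeq2, 20 higher with RLE factors, 3 and 1 with no filter, 5 and 0 with at least 4 *Ghrh* UMIs, 12 lower without likely doublets, and 0 to 20 and 0 to 16 with 1 library left out. The cause of these differences was not tested. *Ghrh* in all neurons passed the threshold with pools 1+3 and 2+4 (log2FC -3.32). Without ad libitum replicate 3 it fell under the filter and was not tested. The share of GHRH neurons was 8.40% ad libitum and 2.16% fasted with 1 *Ghrh* UMI, 3.00% and 0.772% after thinning, and 0.135% fasted with 4 UMIs. *Slc32a1*, uncalled against other neurons, turned to 0.34, 0.32 and 0.019 with pools 1+3 and 2+4, pools 1+4 and 2+3 and 6 samples, to 0.024 without libraries 1 and 2, to 0.063 without doublets, and to between -0.091 and 0.12 with 1 library left out. Of the genes chosen by size or by name, 24 of 34 kept their side of the threshold under each alternative against other neurons, 13 of 16 against *Th* neurons, 16 of 16 against AgRP neurons, 0 of 11 for fasting and 0 of 16 for the interaction.

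Deviations of same-numbered libraries correlated at 0.00918 and -0.00822 over 8172 genes in GHRH neurons, and at -0.0538 and 0.0546 over all neuronal nuclei. Both fasted libraries are tubes of the same pool, and their deviations are mirror images. Whether the replicate numbers pair the libraries can thus not be decided in this way. In fasting fits with this number as a block, libraries without a same-numbered fasted library add nothing to the fasting change, and tubes of a pool count as replicates. With the replicate number as a block the counts were 380 and 396 against other neurons, 138 and 149 against *Th* neurons, 323 and 224 against AgRP neurons, 16 and 40 for fasting, 19 and 7 for the interaction, and the log2FC of *Ghrh* in all neurons was -1.20.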
